A study of Rattus norvegicus with 20 samples.

Results

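The desaturases Fads1, Fads2 and Scd and the elongases Elovl2, Elovl5 and Elovl6 were followed in rat liver after feeding of sesame lignans. Every probe set whose platform annotation gives 1 of these 6 symbols was taken, which gave 8 of 31099 probe sets, and all 8 passed the filter on low values. Elovl5 and Elovl6 have 2 probe sets each, and the other 4 genes have 1. The 6 genes are set among 11576 genes tested on the same arrays. Livers came from male Sprague-Dawley rats that arrived at 4 weeks of age, spent 7 d on a commercial diet and were then divided into 4 groups of 7. For 15 d the groups ate a diet with 0.2% sesamin, 0.2% episesamin or 0.2% sesamolin, or the same kind of experimental diet free of lignan. The arrays represent 5 rats per diet, 1 array per rat and 20 in all, because the heaviest and the lightest rat of each group were left out. Sesamin and episesamin are epimers, and sesamolin carries an additional oxygen bridge between its ring systems.

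Desaturases of the endoplasmic reticulum put double bonds into fatty acids bound to coenzyme A, with electrons passed on by cytochrome b5 and its reductase. Fads2 catalyses the first step that turns linoleic and alpha-linolenic acid into long polyunsaturated fatty acids, and Fads1 acts later on that path, at the step that yields arachidonic acid. Scd makes oleic and palmitoleic acid from saturated chains. Elongases add carbon units: Elovl5 and Elovl2 work on polyunsaturated chains, with Elovl2 acting on the longer ones, and Elovl6 lengthens palmitic acid. In rodent liver several of these genes are known targets of SREBP-1c, which responds to insulin and is restrained by dietary polyunsaturated fat. Fads1, Fads2 and Scd are among those also known to respond to PPAR-alpha agonists.

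Fads1, Fads2 and Scd lie on chromosome 1 of the rat, Elovl6 on chromosome 2, Elovl5 on chromosome 8 and Elovl2 on chromosome 17. In the RefSeq gene order of GRCr8, Fads3, Fads2, Fads1 and Fen1 follow each other along chromosome 1 as protein-coding genes. The promoters of Fads2 and Fads1 are shown because these neighbours encode enzymes of one path, and Fads2 was called between diets and Fads1 was not. The sequences are from RefSeq on GRCr8 and run 5′ to 3′ on each gene's own strand, from 250 bases before the gene's start to 50 bases after it. The Fads2 window is chr1:216171984-216172283 on the minus strand and the Fads1 window is chr1:216252442-216252741 on the plus strand. Capitals mark each GC box (GGGCGG, or CCGCCC where it lies on the opposite strand) and each CCAAT box.
Fads2: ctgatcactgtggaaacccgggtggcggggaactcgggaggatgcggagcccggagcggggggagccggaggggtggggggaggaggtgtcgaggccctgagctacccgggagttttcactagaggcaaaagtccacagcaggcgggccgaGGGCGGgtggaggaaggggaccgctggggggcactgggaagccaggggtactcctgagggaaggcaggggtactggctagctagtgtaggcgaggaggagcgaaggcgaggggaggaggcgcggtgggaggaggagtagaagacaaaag
Fads1: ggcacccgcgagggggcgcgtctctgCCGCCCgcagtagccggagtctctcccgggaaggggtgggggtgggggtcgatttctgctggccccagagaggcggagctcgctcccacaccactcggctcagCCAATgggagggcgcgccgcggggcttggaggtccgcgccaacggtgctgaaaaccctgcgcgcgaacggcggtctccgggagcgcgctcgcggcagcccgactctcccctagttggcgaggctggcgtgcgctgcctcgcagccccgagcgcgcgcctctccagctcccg
The Fads2 window held 1 GC box, at position -99 from the start, and its GC content was 67.3%. The Fads1 window held 1 GC box, at position -224, and 1 CCAAT box, at position -121, and its GC content was 74.3%. Over 33469 promoter windows of the same length, 33.1% held a GC box and 37.5% a CCAAT box on either strand. Of the 6 genes, 5 matched the promoter table with 6 windows, 2 of them for Elovl2. No window of these 5 genes held the sterol response element as searched (TCACCCCAC, present in 0.484% of all windows) or 2 copies of AGGTCA in the same direction with 1 base between them (0.0538% of all windows), both strands searched. Only exact matches were counted, so variant sites and sites outside the window would have been missed.

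Each value below is an array's intensity for a probe set after quantile normalization, which has no unit. Levels of different genes come from different probe sets, so a gap between genes is not a difference in transcript amount. Differences are on the log2 scale of intensity plus an offset of 5.85. Mean raw intensity per array averaged 236 ± 27.6 with sesamin, 213 ± 36.1 with episesamin, 221 ± 45.3 with sesamolin and 247 ± 29.2 without lignan (SD, n = 5 each), and no lignan diet differed from the lignan-free diet in a two-sided exact permutation test (p = 0.540, p = 0.151 and p = 0.262). All 7 measured hepatocyte markers passed the filter, with Alb between 12072 and 16033. None of the 4 exocrine pancreas markers passed it, nor did the adipocyte markers Adipoq and Lep. The summed level of 7 Kupffer cell and macrophage markers was 3137 to 4888 with sesamin, 3208 to 4020 with episesamin and 2303 to 3657 with sesamolin, against 4283 to 5079 on the lignan-free diet. Of these 7 markers, none passed the test with sesamin, C1qa was lower with episesamin, and Clec4f, Adgre1, C1qa, C1qb and Csf1r were lower with sesamolin. The sum of 5 endothelial markers was 2567 to 2770 with sesamin, 2117 to 2506 with episesamin and 2111 to 2613 with sesamolin. On the lignan-free diet it was 2682 to 3119. Of these 5 markers, Kdr and Lyve1 were lower with episesamin and with sesamolin, and Pecam1, Stab2 and Tek were not called in any comparison. Among the markers of hepatocytes, stellate cells, bile duct, adipocytes, red blood cells and skeletal muscle that passed the filter, Apob was lower with sesamolin and the muscle gene Ckm higher with episesamin (21.9 to 51.4, against 5.83 to 25.7 on the lignan-free diet), and no other was called. The 4 arrays numbered 1, 1 of each diet, deviated together from their diet means (r over 0.1 in all 6 pairs). In whole liver, fewer cells of a type and less RNA per cell cannot be told apart.

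**Figure D1:**
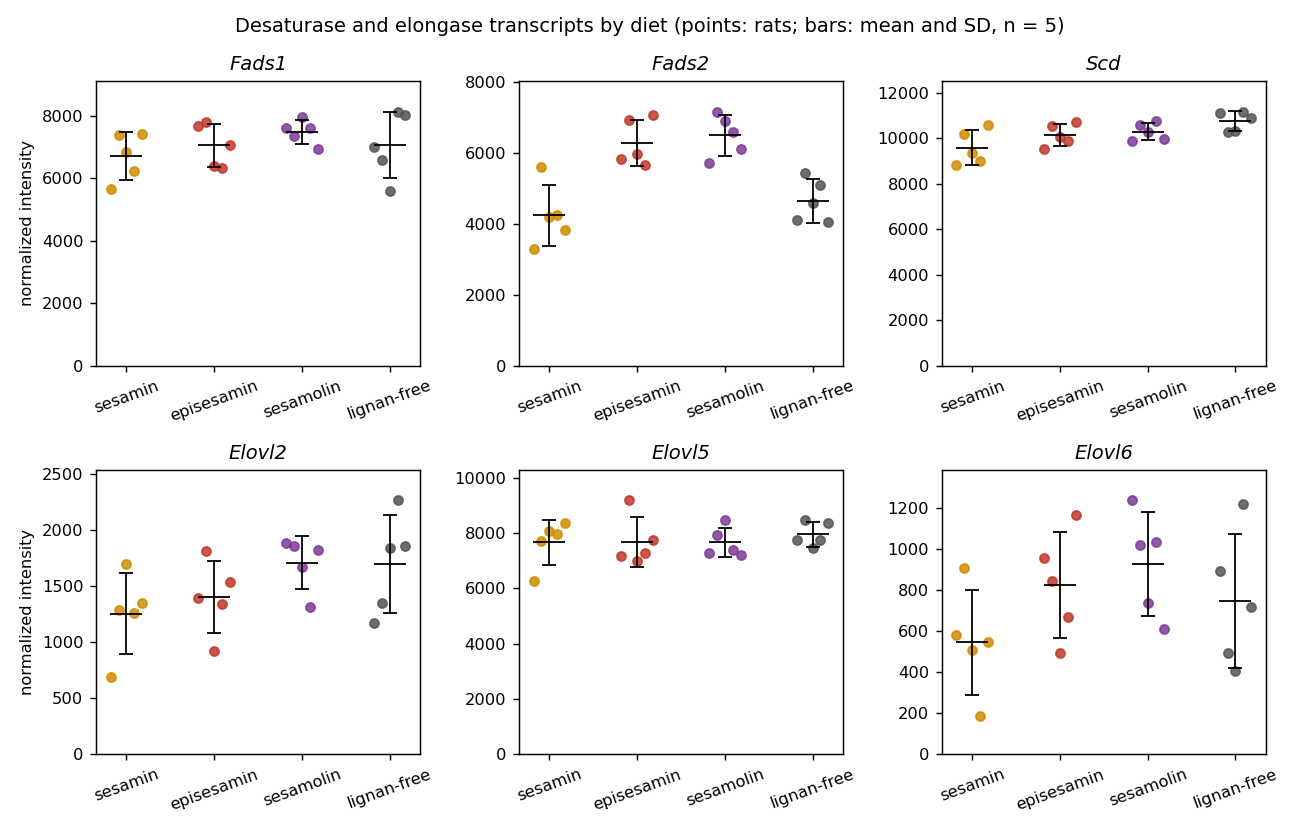
Normalized intensity (no unit) of the 6 genes by diet, each point 1 rat and each bar the mean with its SD (n = 5), with every axis from 0. Fads2 separates episesamin and sesamolin from sesamin and the lignan-free diet after normalization. Raw values overlap in these pairs, except between sesamolin and sesamin. The 10 rats on episesamin or sesamolin lie between 5662 and 7156, and the 10 rats on sesamin or no lignan lie between 3294 and 5588.

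Fads2, the desaturase of the first step, was the one gene of the 6 that passed the test against the lignan-free diet, and it did so with episesamin and with sesamolin. Its level in the 5 rats was 5825, 6907, 5950, 5662 and 7046 with episesamin, and 5705, 7156, 6882, 6582 and 6099 with sesamolin. With sesamin it was 3294, 5588, 4183, 4246 and 3833, and on the lignan-free diet 4088, 5422, 4573, 5080 and 4034. The lowest rat on episesamin or sesamolin (5662) lay narrowly above the highest rat on sesamin or on the lignan-free diet (5588). These groups thus did not overlap, whereas the sesamin and lignan-free ranges did. Such a separation upwards was found for 3.81% of all genes between episesamin and the lignan-free diet and for 3.7% between sesamolin and the lignan-free diet. It was not present before normalization, where lignan-free replicate 2 read 6152, above episesamin replicate 3 (4559) and sesamolin replicate 5 (5169). Fads2 averaged 6278 ± 648 with episesamin, against 4639 ± 609 on the lignan-free diet (SD, n = 5 each), a log2 difference of 0.44 ± 0.13 (SE), or 1.36-fold, with an adjusted p of 0.0492. With sesamolin it averaged 6485 ± 586, a log2 difference of 0.49 ± 0.13 or 1.40-fold from the lignan-free diet, with an adjusted p of 0.0273. With sesamin it averaged 4229 ± 849, a log2 difference of -0.15 ± 0.13 from the lignan-free diet that did not pass the test (adjusted p = 0.877, 95% interval -0.41 to 0.12).

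The count of 1 called gene of 6 with episesamin stood beside 5.12% of all 11576 genes called in that comparison, and that of 1 of 6 with sesamolin beside 6.24%. With sesamin none of the 6 was called by limma, beside 0.432% of all genes, and Scd alone had an unadjusted p under 0.05. The episesamin call lay at the edge of the threshold. It was kept in 8 of 36 alternative settings and was lost on leaving out any 1 array other than lignan-free replicate 2 and sesamin replicates 1 and 2 (adjusted p 0.0502 to 0.128 in the 17 fits that lost it). The sesamolin call was kept in 28 of 36 and was lost without lignan-free replicate 1 or 5 or sesamolin replicate 2, 3 or 4 (adjusted p up to 0.0726). The 36 include fits without an array of another lignan, which leave the episesamin or sesamolin difference itself unchanged. They also include a fit, added after the data were seen, that exchanged only the probe sets of Elovl5 and Elovl6. That fit kept both calls but leaves the Fads2 values as they were. Without the 4 arrays numbered 1 the adjusted p was 0.0974 with episesamin and 0.0538 with sesamolin. Of the Kupffer cell and endothelial markers, C1qa, Kdr and Lyve1 were called lower with both diets, and Clec4f, Adgre1, C1qb and Csf1r with sesamolin only. The part of these markers in the Fads2 difference was not tested.

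The lignans were also set against each other, over 3 pairs at the same dietary dose and time. Fads2 was higher with episesamin than with its epimer sesamin by 0.59 ± 0.13 log2 units, or 1.50-fold (adjusted p = 0.0243). It was higher with sesamolin than with sesamin by 0.63 ± 0.13, or 1.55-fold (adjusted p = 0.0128). In both pairs 5 of 5 rats lay above all 5 rats on sesamin after normalization, which held for 2.15% of all genes with episesamin and 2.3% with sesamolin. Before normalization the episesamin and sesamin rats overlapped (4559 in episesamin replicate 3, 4959 in sesamin replicate 4). The sesamolin and sesamin rats did not overlap before it either (lowest 5169 in sesamolin replicate 5). Across all genes, 1.23% were called between episesamin and sesamin and 1.81% between sesamolin and sesamin. Between sesamolin and episesamin the Fads2 difference was 0.05 ± 0.13 with a 95% interval of -0.22 to 0.31, so a fold between 0.861 and 1.24 was within its error. No gene of the 6 and 0% of all genes were called by limma in that pair, and none of the 6 had an unadjusted p under 0.05. The episesamin to sesamin call was lost without sesamin replicate 1, 3, 4 or 5 or episesamin replicate 2 or 5 (adjusted p 0.0527 to 0.0767), and the sesamolin to sesamin call was kept with each array left out in turn. Without the 4 arrays numbered 1 the first was lost (adjusted p = 0.0902) and the second kept. Of the 7 Kupffer cell and macrophage markers, none was called between episesamin and sesamin and C1qa was lower with sesamolin than with sesamin, and its part in the Fads2 difference was not tested. In a test for any difference over the 4 diets, Fads2 alone of the 6 passed (adjusted p = 0.00638), beside 4.89% of all genes.

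**Figure D2:**
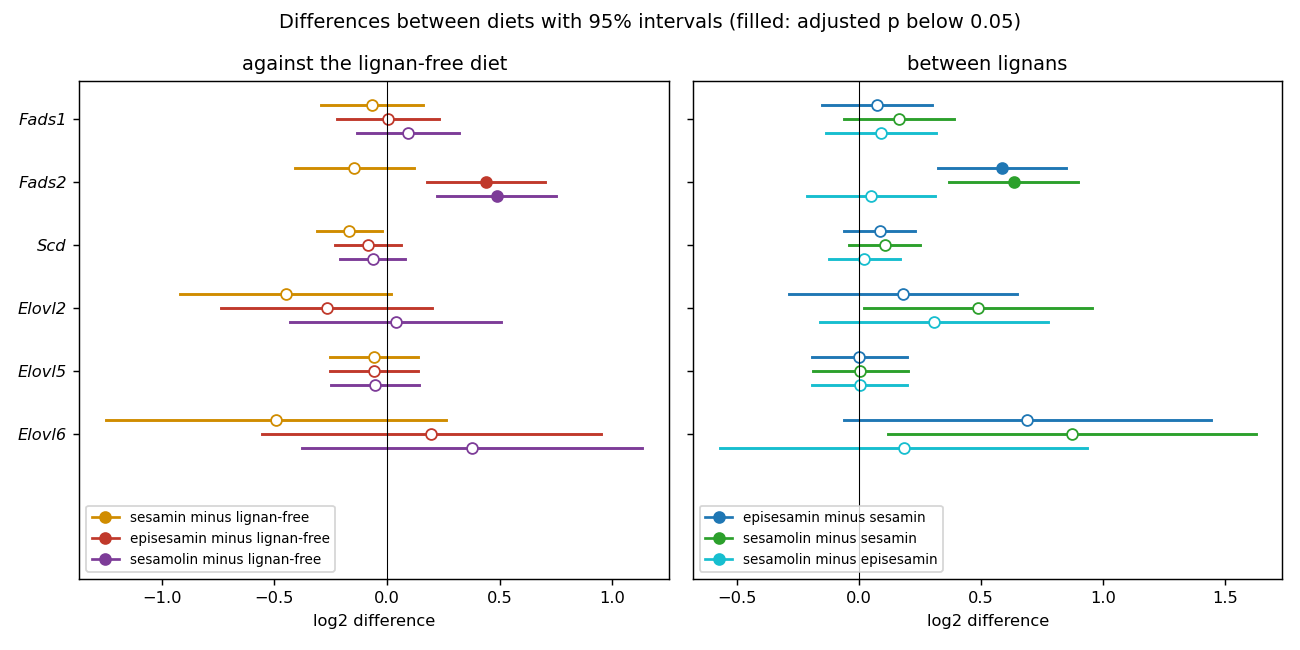
Log2 difference (x axis) of each gene against the lignan-free diet (left) and between lignans (right), with 95% intervals as lines and filled points at an adjusted p below 0.05. The 4 filled points are those of Fads2, and the widest intervals are those of Elovl6.

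Fads1, the desaturase that acts later on the polyunsaturated path, did not pass the test in any of the 6 comparisons. Its level was 5662, 7394, 6854, 6239 and 7422 with sesamin, 7658, 7806, 6380, 6337 and 7072 with episesamin, and 7597, 7341, 7947, 7597 and 6941 with sesamolin. On the lignan-free diet it was 7002, 6582, 5588, 8138 and 8027. The range of the lignan-free rats contained every rat of the other diets. The differences from the lignan-free diet were -0.07 with sesamin, 0.005 with episesamin and 0.09 with sesamolin, each ± 0.11 (SE), with adjusted p from 0.668 to 0.986. The 95% interval ran from -0.22 to 0.23 with episesamin and from -0.13 to 0.32 with sesamolin.

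The log2 gap between Fads2 and each other gene was taken in each rat because Fads2 had been seen to differ between diets. The gaps are therefore given as a description with no test. Fads2 minus Fads1 averaged -0.17 ± 0.14 with episesamin, -0.21 ± 0.13 with sesamolin and -0.68 ± 0.21 with sesamin, against -0.60 ± 0.31 on the lignan-free diet (SD, n = 5 each). Its difference from the lignan-free diet was 0.44 with episesamin and 0.39 with sesamolin, and its difference from sesamin was 0.51 with episesamin and 0.47 with sesamolin. Over the gaps of Fads2 with all 5 other genes, the difference from the lignan-free diet ran from 0.24 (Elovl6) to 0.71 (Elovl2) with episesamin and from 0.11 (Elovl6) to 0.55 (Scd) with sesamolin. The difference from sesamin ran from -0.10 (Elovl6) to 0.58 (Elovl5) with episesamin and from -0.24 (Elovl6) to 0.63 (Elovl5) with sesamolin.

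Scd, which introduces the double bond of oleic acid, differed little between rats of a diet, with coefficients of variation from 3.73% to 7.93%. Its level was 8850, 10182, 9370, 8988 and 10593 with sesamin, 9552, 10535, 10061, 9886 and 10713 with episesamin, and 9886, 10593, 10271, 10762 and 9957 with sesamolin. On the lignan-free diet it was 11118, 10271, 10308, 11182 and 10903. Of the sesamin rats 4 of 5 lay below every lignan-free rat, as did 3 of 5 on episesamin and 2 of 5 on sesamolin. The differences from the lignan-free diet were -0.17 ± 0.07 with sesamin (adjusted p = 0.587, 95% interval -0.31 to -0.02), -0.08 ± 0.07 with episesamin (adjusted p = 0.543) and -0.06 ± 0.07 with sesamolin (adjusted p = 0.654), and none was called. Raw Scd values lay between 8125 and 12119 on arrays whose highest raw value was 13228 to 18018. Whether scanner range narrowed the differences was not tested.

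Elovl2, which lengthens the longer polyunsaturated chains on the way to docosahexaenoic acid, did not pass in any comparison. It read 695, 1288, 1696, 1262 and 1347 with sesamin, 1397, 1812, 923, 1344 and 1539 with episesamin, and 1888, 1859, 1670, 1319 and 1821 with sesamolin. The lignan-free rats read 1170, 1350, 1845, 2270 and 1859. It averaged 1258 ± 360 with sesamin, 1403 ± 324 with episesamin and 1711 ± 235 with sesamolin, against 1699 ± 440 on the lignan-free diet (SD, n = 5 each), and all groups overlapped. Against the lignan-free diet the differences were -0.45 ± 0.22 with sesamin (adjusted p = 0.674), -0.27 ± 0.22 with episesamin (adjusted p = 0.547) and 0.04 ± 0.22 with sesamolin (adjusted p = 0.946). The 95% interval between sesamolin and sesamin, 0.02 to 0.96 around 0.49, left out 0, but the adjusted p was 0.316. Single rats moved these values: without sesamin replicate 1 the difference was -0.25 between sesamin and the lignan-free diet and 0.29 between sesamolin and sesamin, and without episesamin replicate 3 it was -0.13 between episesamin and the lignan-free diet.

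Elovl5, the elongase of the middle of that path, had 2 probe sets, and no difference of either was called. The brighter one read 6259, 7713, 8065, 7947 and 8342 with sesamin, 7156, 9182, 6982, 7292 and 7738 with episesamin, and 7292, 7908, 8478, 7394 and 7220 with sesamolin. On the lignan-free diet it read 7738, 8478, 7445, 7738 and 8342. The group means were 7665 ± 818, 7670 ± 890 and 7658 ± 531 with the 3 lignans in that order, against 7948 ± 441 without lignan, so they differed by less than the SD within any diet. Each difference from the lignan-free diet was between -0.05 and -0.06 with a standard error of 0.09, and the 95% intervals reached from -0.25 to 0.14. The second probe set averaged 2636 ± 516 with sesamin, 2397 ± 240 with episesamin and 2385 ± 412 with sesamolin, against 2670 ± 100 on the lignan-free diet. Its differences from the lignan-free diet were -0.04, -0.16 and -0.18, each ± 0.14. Sesamin replicate 1 was the lowest rat on both probe sets.

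Elovl6, the elongase of palmitic acid, varied most between rats of a diet, with coefficients of variation from 27.2% to 46.8%. Its brighter probe set read 580, 907, 505, 188 and 547 with sesamin, 953, 844, 491, 670 and 1163 with episesamin, and 1236, 1019, 736, 1031 and 608 with sesamolin. Without lignan it read 891, 493, 404, 1215 and 715. Sesamin replicate 4 was the lowest of the 20 rats, and all groups overlapped. The differences from the lignan-free diet were -0.49 ± 0.36 with sesamin (adjusted p = 0.836), 0.20 ± 0.36 with episesamin (adjusted p = 0.810) and 0.38 ± 0.36 with sesamolin (adjusted p = 0.597). Sesamolin exceeded sesamin by 0.87 ± 0.36, or 1.83-fold, with a 95% interval of 0.12 to 1.63 and an adjusted p of 0.258, which did not pass. The difference of 0.69 ± 0.36 between episesamin and sesamin did not pass either (adjusted p = 0.440). Without sesamin replicate 4 these differences were 0.53 and 0.35, and that of sesamin from the lignan-free diet was -0.16. On the second probe set, with every probe set fitted on its own, the difference was 1.18 ± 0.52 between sesamolin and sesamin (adjusted p = 0.324) and 1.04 ± 0.52 between episesamin and sesamin (adjusted p = 0.439).

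**Figure D3:**
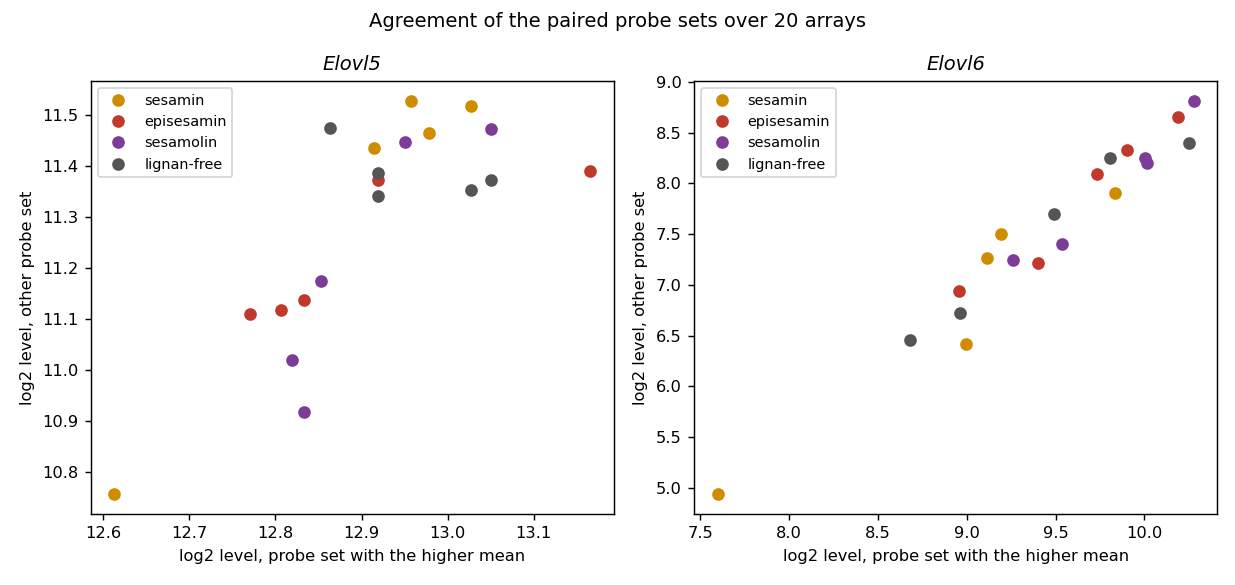
Log2 level of the second probe set against that of the brighter probe set for Elovl5 (left) and Elovl6 (right), each point 1 of 20 arrays, with axes that do not start at 0. The pairs correlate at r = 0.782 for Elovl5 and r = 0.977 for Elovl6, and sesamin replicate 1 for Elovl5 and sesamin replicate 4 for Elovl6 lie lowest on both axes.

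The probe sets of Elovl6 followed each other closely over the 20 arrays (Pearson r = 0.977, and 0.970 for deviations from the diet means), so the spread of Elovl6 between rats appeared on both. Those of Elovl5 followed each other less closely (r = 0.782, and 0.799 within diets). These correlations describe probe sets that share a gene and an array.

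With sesamin all 6 genes lay below the lignan-free diet, by a median of 0.16 log2 units, although none was called. Among all genes 52.1% were below 0 in that comparison. With episesamin 3 genes were above 0 and 3 below, with a median of -0.03 (2 above under median scaling and 1 without normalization). With sesamolin 4 were above and 2 below, with a median of 0.07 (3 above under either of these scalings). The medians of all genes were -0.0095, -0.0183 and -0.0095 for sesamin, episesamin and sesamolin. The comparisons against the lignan-free diet share its 5 rats.

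The diets fell into 3 orders over the 6 genes. For Fads2 the order from high to low was sesamolin, episesamin, lignan-free and sesamin, and the step between episesamin and the lignan-free diet was the one step between neighbours that passed the test. For Fads1 and Elovl6 the order of the means on the log2 scale was the same, for Elovl2 it was sesamolin, lignan-free, episesamin and sesamin, and for Scd and Elovl5 it was lignan-free, sesamolin, episesamin and sesamin. No neighbours in these 5 orders differed beyond their error by the test. Sesamin gave the lowest mean on the log2 scale for all 6 genes, by 0.0009 for Elovl5, and also under median scaling, but without normalization episesamin was lowest for 4 of them, all but Fads2 and Elovl6. On the second probe set of Elovl5 sesamin was not lowest and lay above episesamin and sesamolin.

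Over the 20 arrays, Fads1 and Elovl6 were the pair among the 6 genes with the highest correlation (r = 0.655, and 0.600 for deviations from the diet means), and Elovl5 and Elovl6 were the pair with the lowest (r = -0.026). Fads2 and Fads1 correlated at r = 0.407, and at 0.297 within diets. Arrays, and within a diet also their brightness, are shared by all genes, so these values only describe the libraries.

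The transcripts outside the 6 genes with the most similar patterns were ranked by Pearson r of log2 levels over the 20 arrays among 11440 genes. For Fads2 they were Ogdh, a subunit of the 2-oxoglutarate dehydrogenase of the citric acid cycle (r = 0.937, and 0.769 for deviations from the diet means), Pfn1, the actin-binding protein profilin (0.861, and 0.790), and Wdr1, which takes part in actin filament turnover (0.859, and 0.652). Ogdh averaged 991 ± 20.9 with episesamin, 1026 ± 68.6 with sesamolin and 817 ± 70.6 with sesamin, against 847 ± 28.5 on the lignan-free diet (SD, n = 5 each). It was called higher with sesamolin than without lignan (0.27 ± 0.07, adjusted p = 0.0297) and than with sesamin (0.33 ± 0.07, adjusted p = 0.0217), whereas its differences of 0.23 between episesamin and the lignan-free diet (adjusted p = 0.0776) and of 0.28 between episesamin and sesamin (adjusted p = 0.0652) did not pass.

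For Elovl6 the most similar transcripts were Fasn, which makes palmitic acid (r = 0.848, and 0.811 within diets), Mnat1, a subunit of the kinase that activates cyclin-dependent kinases (0.837, and 0.836), and Pnpla3, a lipid droplet protein (0.820, and 0.878). Fasn averaged 5858 ± 861 with episesamin, 6463 ± 1043 with sesamolin and 4576 ± 1791 with sesamin, against 6133 ± 1384 without lignan, and no difference between diets was called for it. Scd was most similar to Acaca, which makes malonyl-CoA (r = 0.814, and 0.803 within diets), then to Commd6 (0.807) and Serpina3m (0.805). Fads1 was most similar to Fdps, an enzyme of the isoprenoid and cholesterol path (r = 0.770, and 0.770 within diets), Cbll1 (0.753) and Taf3 (0.748). The closest to Elovl2 were Saxo1 (0.772), Cd37 (0.728) and Fxyd5 (0.725), and the closest to Elovl5 were Atp11a (0.747), Wsb2 (0.738) and Myo9b (0.736). Spearman correlations of ranks for these pairs ran from 0.453 (Elovl2 with Cd37) and 0.598 (Scd with Serpina3m) up to 0.943 (Fads2 with Ogdh).

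**Figure D4:**
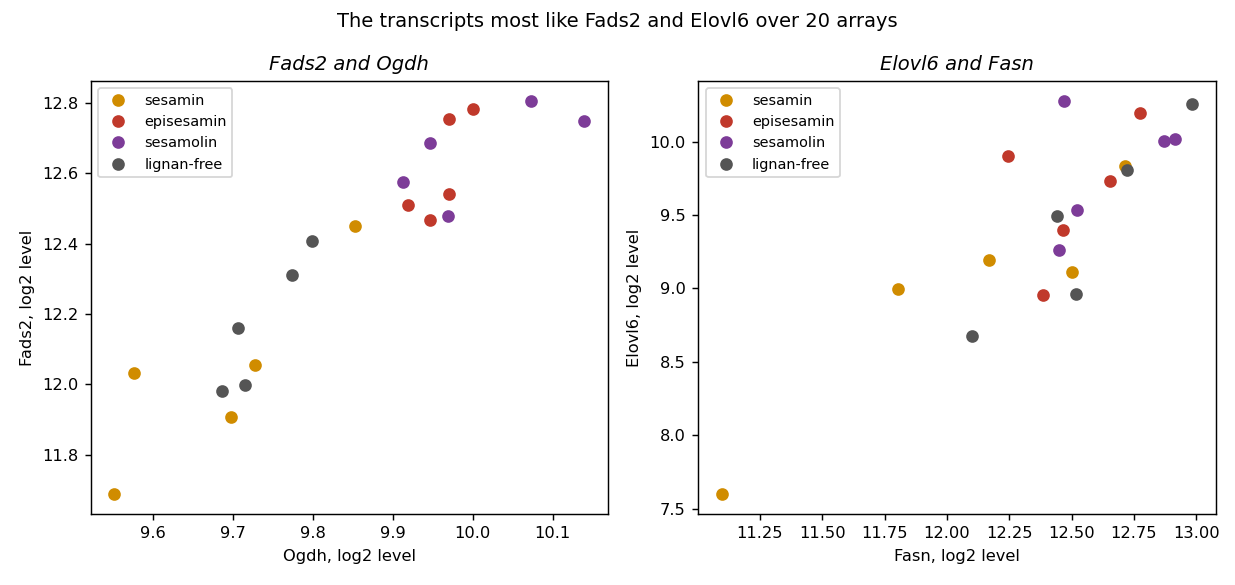
Log2 level of Fads2 against Ogdh (left) and of Elovl6 against Fasn (right), each point 1 of 20 arrays coloured by diet, with axes that do not start at 0. For Fads2 and Ogdh the episesamin and sesamolin rats lie at the upper right (r = 0.937), whereas for Elovl6 and Fasn the diets mix and 1 sesamin rat lies far lower left (r = 0.848).

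Other enzymes that desaturate or elongate fatty acids formed a list of 19 genes, of which 14 had a probe set and 11 passed the filter. None was called with sesamin by limma (Hsd17b12 alone had an unadjusted p under 0.05), 1 was higher and none lower with episesamin, and 2 were higher and none lower with sesamolin. Across all genes 0.432%, 5.12% and 6.24% were called with sesamin, episesamin and sesamolin. Hsd17b12, the ketoacyl-CoA reductase of the elongation cycle, was higher by 0.36 ± 0.07 with episesamin (adjusted p = 0.00659) and by 0.47 ± 0.07 with sesamolin (adjusted p = 0.000539), and its difference with sesamin was 0.23 ± 0.07 (adjusted p = 0.361). Elovl1, an elongase of saturated and monounsaturated long chains, was higher by 0.37 ± 0.10 with sesamolin (adjusted p = 0.0285), and its differences were 0.26 with episesamin (adjusted p = 0.128) and 0.07 with sesamin (adjusted p = 0.933). The electron donors Cyb5a and Cyb5r3 and the ceramide desaturase Degs1, the genes of that list with the highest intensity among those not called, differed from the lignan-free diet by between -0.18 and 0.23. The medians of the 11 genes were -0.05 with sesamin, 0.14 with episesamin and 0.15 with sesamolin.

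Genes that regulate fatty acid synthesis or carry it out formed a list of 23, of which 22 passed the filter. None was called with sesamin by limma, where 6 had an unadjusted p under 0.05, 3 were lower with episesamin, and 1 was higher and 2 lower with sesamolin, beside 0.432%, 5.12% and 6.24% of all genes called. With episesamin these were Acss2, a cytosolic acetyl-CoA synthetase (-0.86 ± 0.19, adjusted p = 0.0107), Acaca (-0.69 ± 0.16, adjusted p = 0.0189) and Scap, the escort of the SREBP proteins (-0.66 ± 0.18, adjusted p = 0.0423). Me1, the cytosolic malic enzyme, was higher with sesamolin by 0.73 ± 0.19 (adjusted p = 0.0285), and Mlxipl, a carbohydrate-responsive transcription factor, and Acss2 were lower by 0.55 and by 0.71 (adjusted p = 0.0127 and 0.0295). With sesamin 20 of the 22 were below 0, with a median of -0.24, and the lowest adjusted p there was that of Acaca (-0.69 ± 0.16, adjusted p = 0.0932), while Pnpla3 was at -1.37 ± 0.52 (adjusted p = 0.515). Srebf1, which encodes SREBP-1, differed by -0.34 with sesamin, 0.07 with episesamin and 0.07 with sesamolin and was not called. Thrsp and Acly were not called with any lignan.

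Peroxisomal enzymes and transporters formed a list of 9 with 6 genes tested. Peroxisomal beta-oxidation shortens the chain in the last step of docosahexaenoic acid synthesis, and whether that step changed was not tested. Higher levels were called for 2 with sesamin, 4 with episesamin and 4 with sesamolin, and lower levels for none, beside 0.432%, 5.12% and 6.24% of all genes called in either direction. Ehhadh, a bifunctional enzyme of peroxisomal beta-oxidation, was higher by 1.61 ± 0.19 with sesamin, 3.15 ± 0.19 with episesamin and 3.05 ± 0.19 with sesamolin. Decr2, which prepares unsaturated chains for that oxidation, was higher by 0.93 with sesamin, 1.28 with episesamin and 1.27 with sesamolin, each ± 0.11. Hsd17b4 was higher by 0.68 with episesamin and 0.61 with sesamolin, and Abcd3, a peroxisomal transporter, by 0.75 and 0.76 with the same diets, while their differences with sesamin were 0.27 each and were not called. Ehhadh, Hsd17b4 and Abcd3 were also called higher with episesamin and with sesamolin than with sesamin, in the pairs in which Fads2 was called. Scp2 was not called with any lignan.

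**Figure D5:**
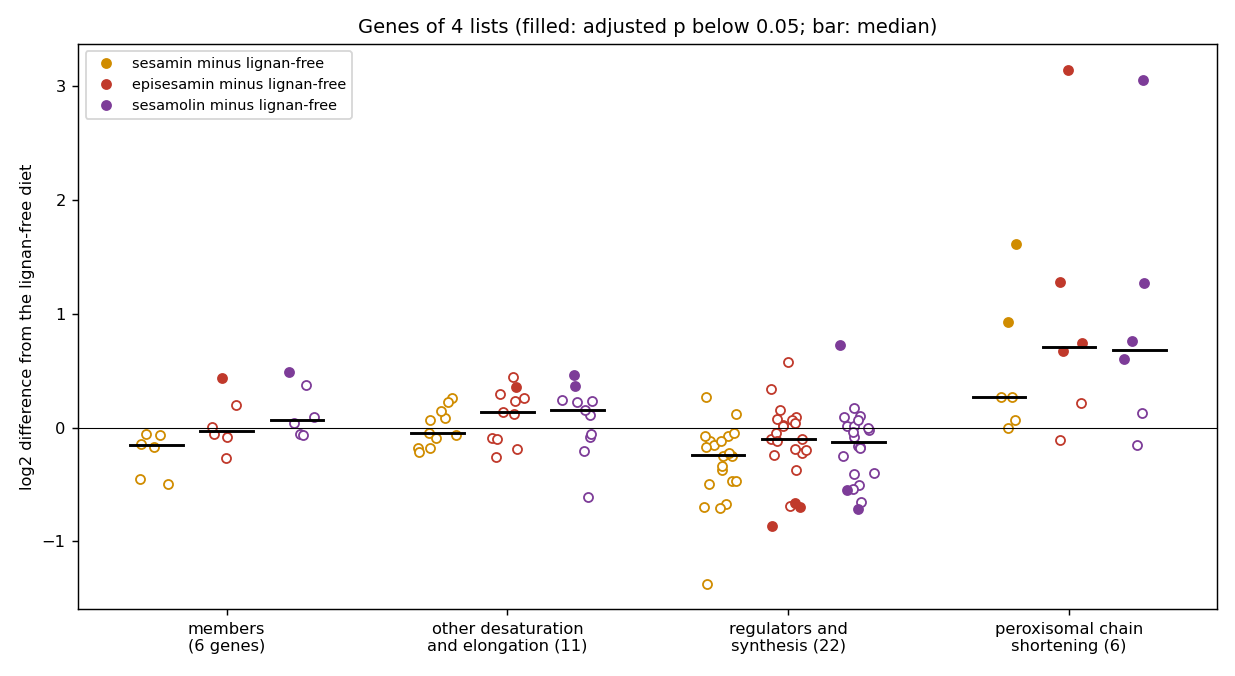
Log2 difference from the lignan-free diet (y axis) of the 6 desaturases and elongases and of 3 lists of related genes, for sesamin, episesamin and sesamolin from left to right, with filled points at an adjusted p below 0.05 and bars at medians. Fads2 is the filled point among the 6 genes for episesamin and for sesamolin, and Ehhadh gives the highest points, up to 3.15.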

How the data were processed

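Liver RNA of 20 rats was measured on Affymetrix arrays from biotin-labelled cRNA, 1 array per rat, per the labels' protocols. The deposited values are an intensity on a linear scale for 31099 probe sets, and array means of 159 to 271 show no common scale between arrays. Their software was not given in the sources used here. The number of arrays limits the precision. The replicates are separate rats, and samples were grouped by the diet in their labels.

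After quantile normalization between arrays, 5.85 was added to each value (its 20th percentile over the data) before log2. Gene symbols came from the platform annotation: 20832 probe sets had 1 symbol and were used, 436 had several and 9831 were not listed, and 57 control probe sets were left out. Probe sets above 17.8 (40th percentile) on 5 or more arrays were kept, and each gene was read from its brightest one. The 11576 genes were tested with limma 3.58.1 (R 4.3.3), two-sided, over all 20 arrays with 6 comparisons of diets and Benjamini-Hochberg adjustment over all genes in each, and called at an adjusted p below 0.05. Every adjusted p is from this fit unless another test is named. The fit was checked on simulated data. Arrays of one diet correlated at r = 0.959 to 0.980.

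The 6 genes and the lists were chosen with earlier results of these data known. From the related lists the text names called genes with the lowest adjusted p (up to 4 a comparison, all of them for other desaturation and elongation) and those with the highest intensity that were not called (2, or 3 in that list). Pnpla3 in the synthesis list was named as one of the lowest adjusted p with sesamin, and Srebf1 and the markers Alb, Adipoq and Lep were named outside that rule. For each gene the 3 transcripts with the highest correlation were named. Promoter sequences are RefSeq's on GRCr8. Protein sequences were not used here. Alternatives changed the scaling, offset, filter, probe set rule, variance model, arrays used and covariates.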

Additional observations from a re-analysis of the deposited data

Results flagged for a closer look

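Elovl5 read 6259 in sesamin replicate 1, while the other 4 rats on sesamin read 7713 to 8342. On the log2 scale, the gap to the nearest of them was 0.727 of the range of the group. The limit for 5 samples is 0.71, and the ratio was taken on log2 levels only, not on these intensities. It was 1 of 24 groups of 5 rats examined over the 6 genes, and chance marks about 1 in 20 groups this way. Without that rat the difference of Elovl5 between sesamin and the lignan-free diet was 0.01 (adjusted p = 0.986). The cause was not tested.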

How the results depend on the processing

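The 36 differences of the 6 genes were refitted under 36 alternatives, 16 changes of processing and 20 fits that left out 1 array. Fads2 kept its direction in all of them in the 4 comparisons in which it was called. The count of called genes was 0 for episesamin against the lignan-free diet under median scaling, without normalization, without the offset, without the filter, with averaged probe sets, with every probe set on its own, with only the groups compared, with mean raw intensity or the actin ratio as a covariate, without the dim arrays (mean raw intensity under 200) and without the arrays numbered 1 (Fads2 adjusted p 0.0520 to 0.407). It was 0 for sesamolin against the lignan-free diet without normalization, without the dim arrays and without those numbered 1 (0.0538 to 0.287). It was 0 for episesamin against sesamin without normalization, with only the groups compared, with the actin ratio and without the arrays numbered 1 (0.0881 to 0.492), and for sesamolin against sesamin without normalization and with only the groups compared (0.313 and 0.0891). Over the 4 diets it was 0 without normalization. Leaving out 1 array gave 0 to 1 called genes in the first 3 of these comparisons and 1 in the other. The cause was not tested. Without normalization the median of all genes was at -0.25 with episesamin and -0.22 with sesamolin, and Fads2 lay 0.50 and 0.58 above it; under median scaling these medians were -0.13 and -0.10 and Fads2 lay 0.51 and 0.59 above them. Replicate numbers were not taken to pair the rats, since diet is the only factor in the labels. Deviations of the same number in different diets correlated at -0.059 to 0.247 (median 0.026), with 10 of 30 pairs over 0.1. Of the pairs of different numbers (median -0.010), 2 of 120 were over 0.1. Of the 20 arrays 11 correlated best with their own number, a hint from the data and not the design, among them all 4 numbered 1, whose 6 pairs were all over 0.1. With the number as a replicate block, 1 of the 6 genes was called in each of the 4 comparisons in which Fads2 was called and 0 in the other 2, as without it, with 696 genes called for episesamin and 858 for sesamolin against the lignan-free diet, 51 for sesamin, 155 for episesamin and 262 for sesamolin against sesamin, and 0 between sesamolin and episesamin. Over all genes, the counts ran from 18 to 69 for sesamin, 263 to 721 for episesamin and 264 to 862 for sesamolin against the lignan-free diet, from 12 to 210 for episesamin and 23 to 308 for sesamolin against sesamin, from 0 to 1 between sesamolin and episesamin and from 198 to 763 over the 4 diets, against 50, 593, 722, 142, 210, 0 and 566 as reported. Median scaling called 180 genes higher and 496 lower for episesamin and 178 and 457 for sesamolin, against 337 and 256 and 380 and 342 as reported, and no normalization called 73 and 190 and 68 and 196.

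The sign changes, 29 under changes of processing and 20 on leaving out 1 array, were all of differences that did not pass in either fit. Without normalization, Elovl2 was at -4.7e-05 between episesamin and sesamin and -0.157 with sesamolin, Elovl5 at -0.097 between episesamin and sesamin and -0.037 between sesamolin and sesamin, Elovl6 at -0.053 with episesamin, Fads1 at -0.138 with episesamin and -0.040 between episesamin and sesamin, and Scd at -0.046 between episesamin and sesamin. Under median scaling, Elovl2 was at -0.029 with sesamolin and Fads1 at -0.0063 with episesamin. For Elovl5 between episesamin and sesamin, sesamolin and episesamin, and sesamolin and sesamin, the mean of the probe sets gave -0.057, -0.0083 and -0.066, the other probe set -0.116, -0.019 and -0.135, and the fit without the arrays numbered 1 -0.047, -0.0039 and -0.051. That last fit also gave 0.0044 for Elovl5 with sesamin, -0.025 for Elovl2 between episesamin and sesamin, -0.124 for Elovl2 with sesamolin, -0.027 for Fads1 with episesamin and -0.018 for Fads1 between episesamin and sesamin. The actin covariate gave -0.022 for Elovl5 between episesamin and sesamin and -0.041 for Elovl6 between sesamolin and episesamin, and mean raw intensity gave -0.0096 for Elovl5 between sesamolin and episesamin. Without the dim arrays, Elovl5 was at -0.051 and Fads2 at -0.045 between sesamolin and episesamin. Leaving out 1 array, Elovl2 ran from -0.018 to 0.322 between episesamin and sesamin and from -0.085 to 0.153 with sesamolin; Elovl5 from -0.070 to 0.033 between episesamin and sesamin, -0.090 to 0.014 with sesamin, -0.035 to 0.069 between sesamolin and episesamin and -0.068 to 0.035 between sesamolin and sesamin; Fads1 from -0.077 to 0.059 with episesamin; and Scd from -0.00069 to 0.041 between sesamolin and episesamin.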
